A study of Mus musculus with 6 samples.

Results

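Astrocytes release proteins that change how synapses form. The 9 genes described here encode the best known of them in the mouse: the SPARC proteins Sparc and Sparcl1, the thrombospondins Thbs1, Thbs2 and Thbs4, the glypicans Gpc4, Gpc5 and Gpc6, and Chrdl1. They were chosen by symbol among the 35275 genes of a bulk RNA-seq data set of the adult spinal cord, and each symbol matched 1 row. The choice did not rank genes by value, but it was made with earlier results of these data known. The study asked which transcripts change in the CNS when the transcription factor SOX2 is deleted from astrocytes, and compared 3 Sox2 cKO mice with 3 control (Ctrl) mice. By the labels all 6 mice were C57BL/6, and the Sox2 cKO genotype was mGfap-Cre:Sox2fl/fl, in which Cre driven by the mouse Gfap promoter recombines the floxed Sox2 allele in most astrocytes. The labels give the Ctrl genotype as mGfap-Cre:Sox2+/+, whereas the study's methods describe littermates with the floxed allele and without Cre, so the sources differ on which allele the controls carry. The labels also give the age as postnatal day 90, and the extraction protocol and the study's methods as day 80. No sample received a treatment. By the study's methods each group held both females and males. The sex behind each library was not determined here, and sex was not part of the fit.

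The thrombospondins are large extracellular glycoproteins that act through the calcium channel subunit α2δ-1, encoded by Cacna2d1, and promote the assembly of excitatory synapses that are structurally complete but postsynaptically silent. Sparcl1, also called hevin, promotes excitatory synapses by linking proteins of the presynaptic and postsynaptic membranes, and Sparc, its close relative, is known to counter that activity. Glypicans are heparan sulfate proteoglycans held to the cell surface by a lipid anchor. Once released, Gpc4 and Gpc6 recruit AMPA receptors through presynaptic receptor tyrosine phosphatases and neuronal pentraxins. Chrdl1, an antagonist of bone morphogenetic proteins, is known to favour the switch to AMPA receptors that contain GluA2. Thbs1 and Thbs2 are known mainly from immature astrocytes, while Sparcl1 and Gpc5 are abundant in mature ones.

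In the study's list of the most enriched SOX2 sites, which was drawn from SOX2 chromatin immunoprecipitation of adult cerebral cortex and not of spinal cord, 2 of the 9 genes are the nearest gene of a site. The share of all genes in that list was not computed. For Sparcl1 the study also reported SOX2 binding by immunoprecipitation with qPCR in primary astrocytes, and overlap with H3K27Ac, a mark of active enhancers. The sequences shown for both genes are the study's motif matches at the listed sites. The immunoprecipitation located the sites and not the bases in capitals, and these need not be the only sites of the genes. Each sequence is given on the minus strand of mm10, with the matched 11 bases in capitals between flanks of 10 bases. Coordinates are those of the 100-base window around the match.
Sparcl1, chr5:104110577-104110676: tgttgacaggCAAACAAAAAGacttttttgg
Thbs4, chr13:92751941-92752040: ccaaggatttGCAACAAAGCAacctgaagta
The Thbs4 match holds CAAAG, the core of the SOX2 motif, and the Sparcl1 match does not. Both lie in an intron of their gene, and the Sparcl1 window also overlaps an exon of Gm26703, which is annotated on the opposite strand. The study's longer list of sites, which was read only in part here, also names Sparc as the nearest gene of sites.

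The promoter of Thbs2, the member with the smallest adjusted p in the comparison described further on, is printed to show the stretch before the start of a gene that fell. RefSeq places its 250 bases upstream of the start on the minus strand at chr17:14694263-14694512 of GRCm38.p6, the build of mm10.
Thbs2: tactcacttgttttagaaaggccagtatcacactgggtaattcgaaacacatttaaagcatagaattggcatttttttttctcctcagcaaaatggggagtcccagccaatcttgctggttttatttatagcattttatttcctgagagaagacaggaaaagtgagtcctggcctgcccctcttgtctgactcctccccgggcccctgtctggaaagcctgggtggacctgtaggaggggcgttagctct
A RefSeq promoter of 300 bases, from 250 before to 50 after the start, was at hand for 5 of the 9 genes, namely Sparc, Thbs2, Thbs4, Gpc4 and Gpc5. CAAAG was searched on both strands, as CAAAG or CTTTG, and was found in 0 of these 5 promoters and in 53.9% of the 32851 promoters in the same table. This only says that these letters are not in those windows. By the gene coordinates given further on, the windows of Sparc and Gpc4 lie inside the annotated gene, so they do not precede its outermost start. Promoters of Sparcl1, Thbs1, Gpc6 and Chrdl1 were not analysed here.

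The deposited columns carry numbers and no sample names. Even-numbered libraries (2, 4, 6) were assigned to Ctrl and odd-numbered ones (1, 3, 5) to Sox2 cKO, and the labelled replicate that each of them represents is not known. Values per library are given in these orders throughout. Group means listed by the study for 1999 genes matched this assignment within a relative difference of 0.0001 for 1999 genes, and 0 matched with the groups exchanged. The libraries held between 21507911 and 28392184 counted reads. Counts were scaled to library size by the TMM method, as counts per 1000000 (CPM), and tested with edgeR's quasi-likelihood test on the 16137 genes that passed its filter on low counts, with Benjamini-Hochberg adjustment over all of them. Sox2 itself, the deleted gene, was at 19.9, 14.8 and 29.5 CPM in the Ctrl mice and at 3.16, 2.69 and 2.98 CPM in the Sox2 cKO mice, without overlap (log2 fold change -2.86, SE 0.24, adjusted p = 0.000956, edgeR). The tissue is bulk spinal cord, so fewer cells of a type and less RNA per cell cannot be told apart, and the cell that made a transcript is not resolved.

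Thbs2 fell and Sparc rose in Sox2 cKO spinal cord, and these were the only calls among the 9 genes at an adjusted p below 0.05 in the edgeR test. All 9 genes passed the filter. The 2 calls are 22.2% of the members, against 24.6% of all genes tested. In the lower direction 1 of 9 was called, where 12.4% of all genes were, and in the higher direction 1 of 9, where 12.2% of all genes were. The share called was thus near the background in both directions. Unadjusted p-values were below 0.05 for 3 members, the third being Sparcl1. The median log2 fold change of the members was -0.02, against 0.02 for all genes tested, with 5 values below 0 and 4 above. CPM did not overlap between the groups for Sparc, Sparcl1, Thbs2, Gpc4 and Gpc5, which is 5 of 9 members or 55.6%, where 44.7% of all genes tested did not overlap. On the authors' FPKM scale 3 of 9 members did not overlap, Sparc, Thbs2 and Gpc4, where 45.1% of all genes tested did not. With 3 libraries against 3 the exact two-sided permutation test cannot give p below 0.1, and it gave p = 0.1 for each of the 5 genes without overlap in CPM and between 0.9 and 1 for the other 4.

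**Figure D1:**
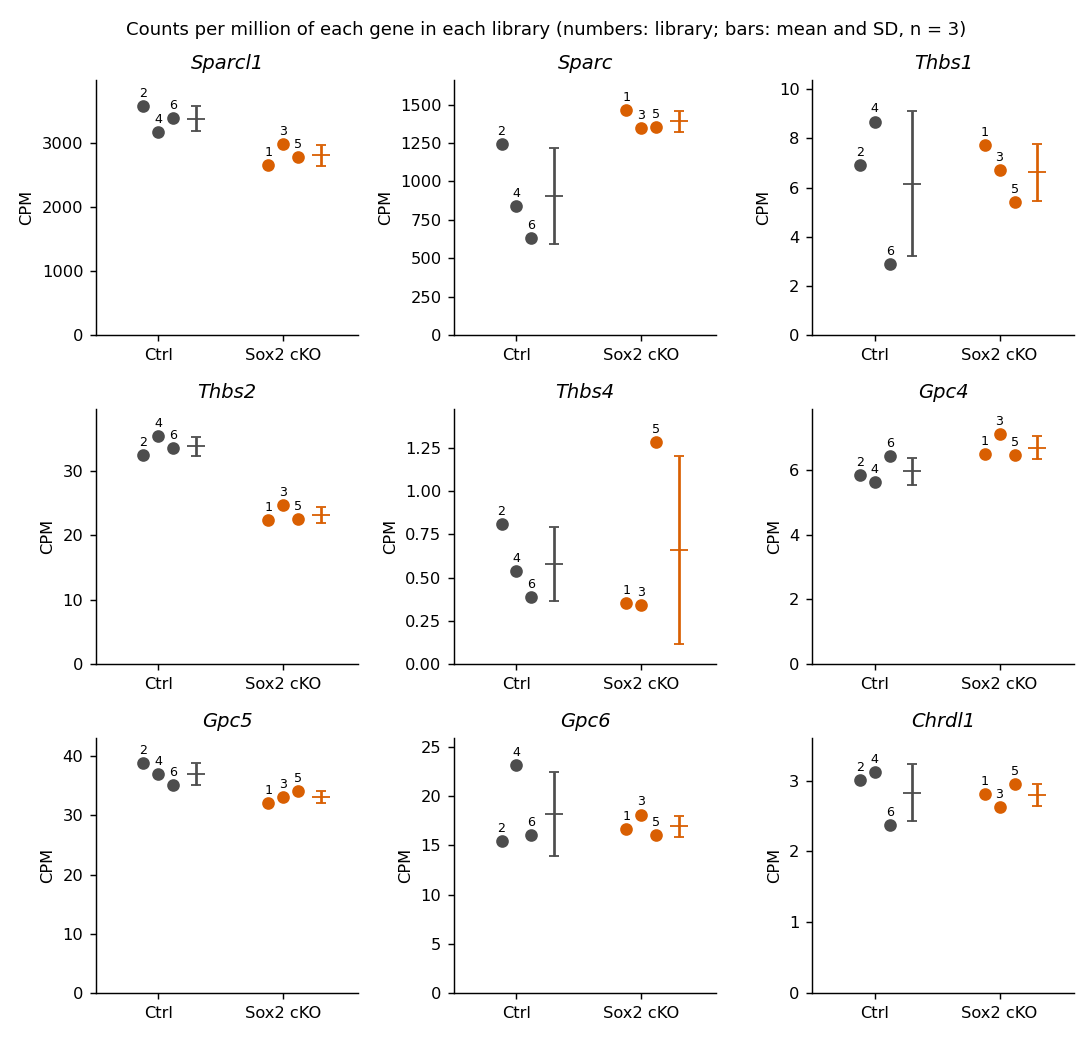
CPM (vertical axes, from 0) of the 9 genes in each library, with the library number above each point and the mean and SD of each group (n = 3) beside the points. Thbs2 shows the clearest separation, with Sox2 cKO libraries between 22.4 and 24.6 CPM and Ctrl libraries between 32.4 and 35.3 CPM, while Thbs1, Thbs4, Gpc6 and Chrdl1 overlap.

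**Figure D2:**
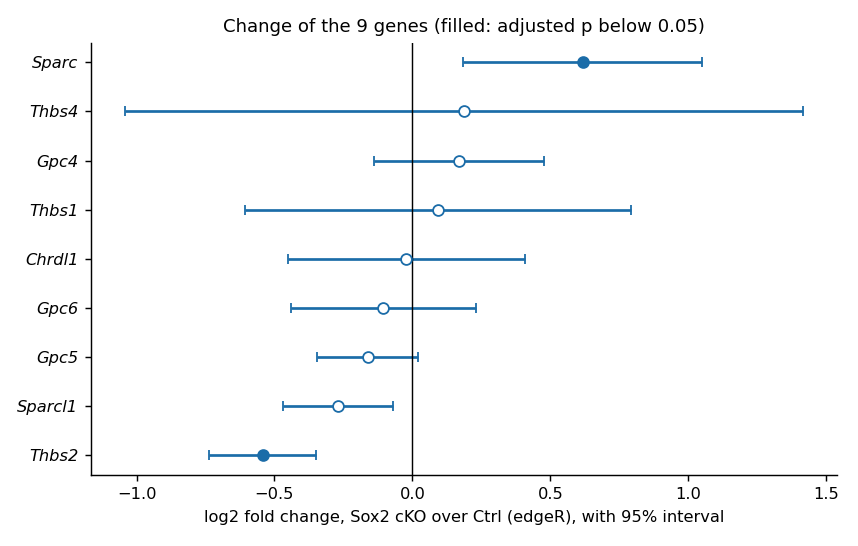
Log2 fold change of each gene in Sox2 cKO over Ctrl spinal cord (horizontal axis) with its 95% interval from edgeR, filled where the adjusted p is below 0.05. The intervals of Thbs2, Sparcl1 and Sparc do not reach 0, and that of Thbs4 is the widest, from -1.04 to 1.42.

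On the FPKM scale, which is per 1000 bases of gene and 1000000 counted reads and allows levels of different genes to be set side by side, the 9 genes spanned more than 3 orders of magnitude. Sparcl1 was the most abundant in Ctrl spinal cord at 1050 ± 81.1 FPKM (SD, n = 3), rank 18 among the 35275 genes. Sparc followed at 383 ± 142 FPKM, rank 77. Then came Gpc5 at 12.6 ± 0.966 FPKM, Thbs2 at 5.50 ± 0.209 FPKM, Gpc6 at 2.61 ± 0.60 FPKM and Gpc4 at 2.17 ± 0.124 FPKM. The lowest levels were those of Thbs1 at 1.02 ± 0.498 FPKM, Chrdl1 at 0.668 ± 0.108 FPKM and Thbs4 at 0.176 ± 0.069 FPKM. Neighbours in this order were separated in every library except Gpc6 and Gpc4, and Thbs1 and Chrdl1, whose Ctrl libraries overlapped. In Sox2 cKO spinal cord the order was the same apart from Gpc4 and Gpc6, at 2.61 and 2.60 FPKM, whose libraries again overlapped. The step from the pair of SPARC genes to Gpc5 was the largest, 30.4 times between the means of Sparc and Gpc5 in Ctrl and 51.9 times in Sox2 cKO.

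**Figure D3:**
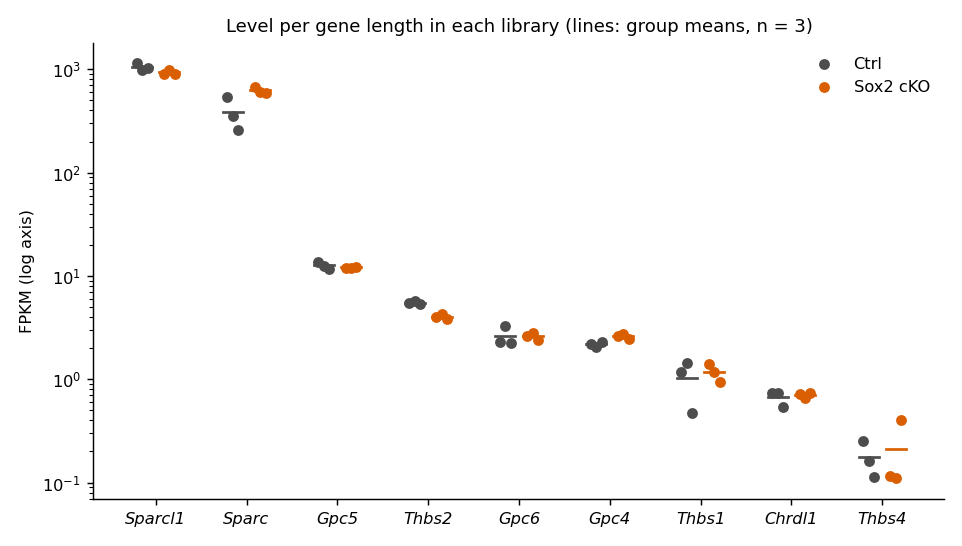
FPKM of the 9 genes in each library on a log axis, ordered by the mean in Ctrl, with lines at the group means (n = 3). Sparcl1 and Sparc lie above 250 FPKM in every library and the other 7 genes below 14 FPKM.

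In the edgeR test Sparc rose, and Sparcl1, though lower in every Sox2 cKO library in CPM, was not called, whereas DESeq2 called Sparcl1 and not Sparc. Sparc (ENSMUSG00000018593, chromosome 11, 55394500 to 55423183, minus strand) encodes a matricellular collagen-binding protein that is also made by endothelial cells and fibroblasts. It was at 1245, 841 and 634 CPM in the Ctrl mice and at 1467, 1348 and 1356 CPM in the Sox2 cKO mice. Every Sox2 cKO library was above every Ctrl library, and the Ctrl libraries spread far more, with a coefficient of variation of 34.3% against 4.80%. The mean rose 1.53-fold (log2 fold change 0.62, SE 0.20, 95% interval 0.18 to 1.05, adjusted p = 0.0439, edgeR). This call depended on the processing. It was not made by DESeq2 (adjusted p = 0.0996, where 28.1% of 15425 genes were called), after correction for gene length (adjusted p = 0.0799, where 13.1% of all genes tested were called) or without any one library other than Ctrl library 2, where the adjusted p in edgeR was 0.145 and 0.0977 on leaving out Ctrl library 4 or 6, and 0.142, 0.0953 and 0.0778 on leaving out Sox2 cKO library 1, 3 or 5. In those edgeR fits, in the same order, 26, 1082, 8, 1359 and 2665 genes were called in all, against 3970 with every library. Without Ctrl library 2, the highest of the controls, the log2 fold change was 0.91 (adjusted p = 0.000647, edgeR), and 6119 genes were called in all.

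Sparcl1 (ENSMUSG00000029309, chromosome 5, 104079111 to 104113733, minus strand) was at 3575, 3181 and 3400 CPM in the Ctrl mice and at 2655, 2989 and 2788 CPM in the Sox2 cKO mice. The Sox2 cKO libraries were all below the Ctrl libraries in CPM, with a similar spread in both groups. The log2 fold change was -0.27 (SE 0.09, 95% interval -0.47 to -0.07), a difference of -17.0%, with an adjusted p = 0.0522 in edgeR that missed the threshold. DESeq2 called it lower (adjusted p = 0.00769), and so did edgeR with the length correction (adjusted p = 0.0358). With edgeR scaled by library totals alone it was -0.17 and not called (adjusted p = 0.174), and limma on log2(FPKM + 1) also gave -0.17 without a call (adjusted p = 0.211). On the FPKM scale the groups overlapped, since Sox2 cKO library 3 had 991 FPKM and Ctrl library 4 had 982 FPKM. The direction was lower in all alternatives run. The study, which used DESeq2, gave Sparcl1 as an example of its downregulated genes and reported less of the protein in Sox2 cKO brain by Western blot. It also reported less Sparcl1 RNA by RT-qPCR in the spinal cord of younger Sox2 cKO mice. In the forebrain of young mice with an induced deletion of Sox2 in astrocytes, it reported less Sparcl1 RNA and protein. Gm26703 overlaps Sparcl1 on the opposite strand, and the strand setting of the counting is not given in the sources used here.

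The ratio of both transcripts compares them within each library and does not depend on how libraries are scaled. It was added after the values had been seen. In FPKM there were 2.12, 2.80 and 3.96 Sparcl1 per Sparc in the Ctrl mice, and 1.34, 1.64 and 1.52 in the Sox2 cKO mice. Every Sox2 cKO library had a lower ratio than every Ctrl library. In CPM Sparc was higher and Sparcl1 lower in every Sox2 cKO library than in every Ctrl library. The separation of the ratio and its permutation p follow from those values and add no separate support. The log2 ratio of Sparc to Sparcl1 counts was -1.02 ± 0.148 (SD, n = 3) in Sox2 cKO and -1.96 ± 0.452 (SD, n = 3) in Ctrl, a difference of 0.94 (exact two-sided permutation test, p = 0.1, the smallest that 3 against 3 allow). Leaving out 1 library at a time moved this difference between 0.71, without Ctrl library 6, and 1.16, without Ctrl library 2.

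**Figure D4:**
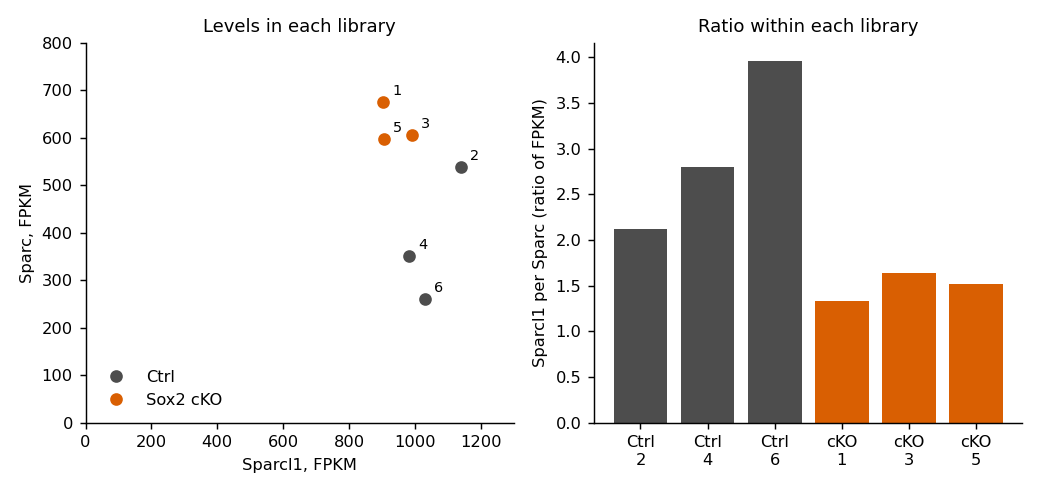
Left, FPKM of Sparc against FPKM of Sparcl1 in each library, with its number; right, the ratio of Sparcl1 to Sparc FPKM in each library as bars from 0. The Sox2 cKO libraries cluster at 1.34 to 1.64 Sparcl1 per Sparc, and the Ctrl libraries spread from 2.12 to 3.96.

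Of the thrombospondins, Thbs2 was the one that fell. Thbs2 (ENSMUSG00000023885, chromosome 17, 14665500 to 14694235, minus strand) was at 32.4, 35.3 and 33.6 CPM in the Ctrl mice and at 22.4, 24.6 and 22.6 CPM in the Sox2 cKO mice. The groups were far apart relative to their spread, with coefficients of variation of 4.4% and 5.35%. The log2 fold change was -0.54 (SE 0.09, 95% interval -0.74 to -0.35, adjusted p = 0.0124, edgeR), which left 0.687 times the Ctrl level. It was lower in every alternative and called in each of the 9 alternatives that kept all libraries, but its size varied. With the length correction the log2 fold change was -0.34 (adjusted p = 0.0260, edgeR), the smallest of them. The edgeR call was lost without Ctrl library 4 (adjusted p = 0.0650) and without Sox2 cKO library 1 (adjusted p = 0.0656), while DESeq2 kept it in all 6 fits that left out a library. In those 2 edgeR fits 26 and 8 genes were called in all, against 3970 with every library.

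Thbs1 (ENSMUSG00000040152, chromosome 2, 118111876 to 118127133, plus strand) was at 6.91, 8.69 and 2.90 CPM in the Ctrl mice and at 7.73, 6.72 and 5.40 CPM in the Sox2 cKO mice. The groups overlapped, and Ctrl library 6 was the lowest of all. Its log2 fold change was 0.09 (SE 0.32, 95% interval -0.61 to 0.79, adjusted p = 0.851, edgeR), and its sign turned to -0.24 without Ctrl library 6. The interval allows changes from 0.656 to 1.73 times the Ctrl level, so a change of the size seen for Thbs2 was not detectable for Thbs1.

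Thbs4 (ENSMUSG00000021702, chromosome 13, 92751590 to 92794818, minus strand), a gene with a listed SOX2 site, had few reads. It had 18, 13 and 8 counted reads in the Ctrl mice, and 8, 10 and 34 in the Sox2 cKO mice. Sox2 cKO library 5 stood above the rest, and its exact 95% Poisson interval, 23.5 to 47.5 reads, did not reach the counts of the other 2 Sox2 cKO libraries. In CPM that library had 1.28, against 0.341 to 0.808 in the other 5. Between the groups the log2 fold change was 0.19 (SE 0.55, adjusted p = 0.825, edgeR) and turned to -0.74 without that library. The same library was the highest of the 6 for all 6 markers of skeletal muscle and tendon other than Fmod and Scx. Acta1, skeletal muscle actin, was at 21.5 CPM there and at 1.54 to 8.92 CPM in the others, and Tnnt3, a fast skeletal troponin T, at 19.0 CPM there and at 0.648 to 10.5 CPM in the others. The part of other tissue in this value was not tested.

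None of the 3 glypicans passed the test. Gpc5 (ENSMUSG00000022112, chromosome 14, 115092215 to 116525179, plus strand), the most abundant of them, was at 38.9, 37.0 and 35.2 CPM in the Ctrl mice and at 32.1, 33.1 and 34.2 CPM in the Sox2 cKO mice. All Sox2 cKO libraries were below the Ctrl libraries, with a gap of about 1 CPM between the nearest of them. The log2 fold change was -0.16 (SE 0.08, 95% interval -0.34 to 0.02, adjusted p = 0.171, edgeR). Gpc4 (ENSMUSG00000031119, chromosome X, 52053021 to 52165252, minus strand) had 5.83, 5.61 and 6.42 CPM in the Ctrl mice and 6.50, 7.10 and 6.46 CPM in the Sox2 cKO mice. Its groups nearly touched, at 6.42 and 6.46 CPM, and the log2 fold change was 0.17 (SE 0.14, 95% interval -0.14 to 0.48, adjusted p = 0.387, edgeR). Neither gene was called under any alternative, although Gpc5 stayed below 0 and Gpc4 above 0 in all of them.

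Gpc6 (ENSMUSG00000058571, chromosome 14, 116925315 to 117976544, plus strand) lies next to Gpc5 and had 15.5, 23.2 and 16.1 CPM in the Ctrl mice and 16.6, 18.1 and 16.1 CPM in the Sox2 cKO mice. Ctrl library 4 was the highest and the other 5 libraries lay within 15.5 to 18.1 CPM. Its log2 fold change was -0.11 (SE 0.15, 95% interval -0.44 to 0.23, adjusted p = 0.635, edgeR), and it turned to 0.10 without Ctrl library 4. Chrdl1 (ENSMUSG00000031283, chromosome X, 143285674 to 143394262, minus strand) had 3.01, 3.12 and 2.37 CPM in the Ctrl mice and 2.81, 2.63 and 2.95 CPM in the Sox2 cKO mice. The groups overlapped fully. Its log2 fold change was -0.02 (SE 0.19, 95% interval -0.45 to 0.41, adjusted p = 0.945, edgeR), and its sign varied with the scaling. Thbs1, Gpc5 and Gpc6 also overlap genes annotated on the opposite strand, so the same limit on strand holds for their counts as for Sparcl1.

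**Figure D5:**
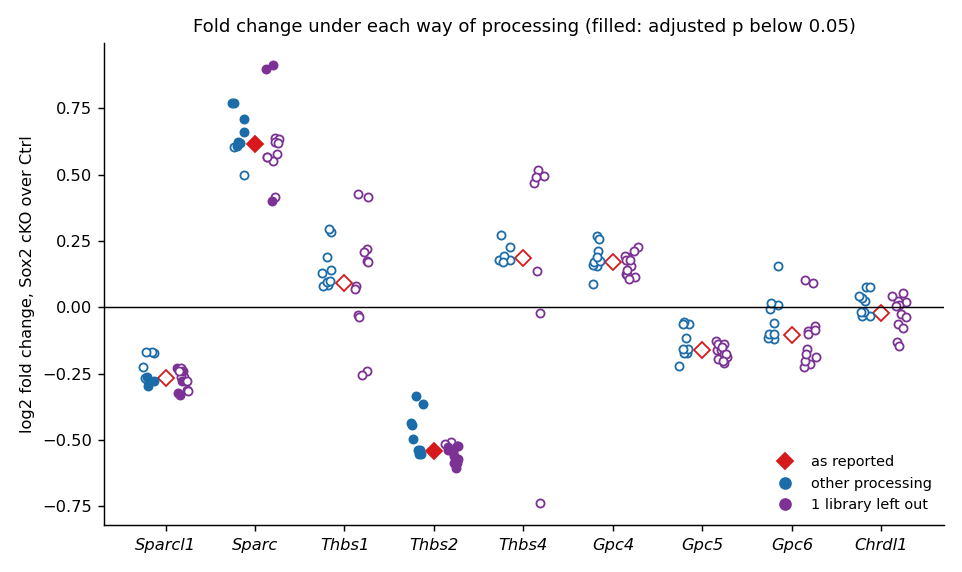
Log2 fold change of each gene (vertical axis) as reported, with other processing and with 1 library left out, filled where the adjusted p is below 0.05. Thbs2, Sparcl1 and Gpc5 stay below 0 and Sparc and Gpc4 above 0 throughout, and Thbs1, Thbs4, Gpc6 and Chrdl1 cross 0.

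Most astrocyte markers that passed the test were lower in the same libraries, and their part in the values of the 9 genes was not tested. Of 16 astrocyte markers, 7 were lower and 1 higher, or 50% called against 24.6% of all genes tested. With the length correction 4 and 0 were, where 13.1% of all genes were called. Their summed level was 10751 to 12734 CPM in Ctrl and 8469 to 8829 CPM in Sox2 cKO libraries, without overlap. Gfap, the filament protein of astrocytes, had a log2 fold change of -1.11, and the one that was higher was S100b, a calcium-binding protein, at 0.71. S100b was at 788, 502 and 434 CPM in the Ctrl mice and at 929 to 948 CPM in the Sox2 cKO mice. Its Ctrl libraries stood in the same order as those of Sparc, but the share of all genes in that order was not counted. Across genes with enough reads, Ctrl library 2 was nearer to Sox2 cKO libraries 5 and 3 than to Ctrl libraries 4 and 6. The chi-square per degree of freedom between counts was 11.55, 15.74, 26.92 and 31.55 in that order, and 30.11 for Sox2 cKO library 1. Of 4 markers of oligodendrocyte precursors 3 were lower (list median -0.52 on the log2 scale), where 12.4% of all genes tested were lower. Their summed levels were 144 to 166 CPM in Ctrl and 89.3 to 127 CPM in Sox2 cKO. With the length correction 1 of the 4 was called and the median was -0.24. Without Ctrl library 4 or without Sox2 cKO library 1 edgeR called 0 of the 4, where it called 26 and 8 of all genes. In each of these fits 3 had an unadjusted p below 0.05, and DESeq2 called 1 and 3. Among markers of vessels, 1 of 7 endothelial and 1 of 8 pericyte and smooth muscle genes were higher, where 12.2% of all genes tested were, and 0 were lower. Their summed levels overlapped. All 8 markers of skeletal muscle and tendon had values above 0, with a median log2 fold change of 1.57. Of these 8, edgeR and DESeq2 called 0, with 5 and 2 at an unadjusted p below 0.05. With no filter on low counts edgeR called 4 higher and without Sox2 cKO library 3 it called 5 higher. Without Sox2 cKO library 5 edgeR and DESeq2 called 0, with 1 and 0 at an unadjusted p below 0.05, and the median in edgeR was 0.69. Their summed level was 81.0, 66.3 and 30.0 CPM in the Ctrl mice and 131, 76.0 and 137 CPM in the Sox2 cKO mice. Fmod, which encodes fibromodulin, a collagen-binding proteoglycan, made up most of it in every library except Sox2 cKO library 5. Fmod was at 61.6, 52.7 and 20.03 CPM in the Ctrl mice and at 95.2, 65.5 and 64.0 CPM in the Sox2 cKO mice, without overlap. Its Ctrl libraries stood in the same order as those of Sparc, again without a count of all genes in that order. The part of such tissue in the Sparc values was not tested. Fibroblast markers, of which 0 of 6 were called by edgeR and by DESeq2 and 1 had an unadjusted p below 0.05 in edgeR, summed to 319, 293 and 129 CPM in the Ctrl mice and to 211 to 242 CPM in the Sox2 cKO mice. The absence of calls rested on Ctrl library 6, without which both edgeR and DESeq2 called 3 of the 6 lower, with a median of -0.27 in edgeR. Ctrl library 6 was thus the lowest of all 6 for fibroblast markers, for Sparc and for Thbs1, and for the 5 Schwann cell markers, with 24.5 CPM where the others had 46.8 to 68.8 CPM. Red blood cell markers were highest there, at 166 CPM against 57.1 to 98.4 CPM. Of 9 neuron markers edgeR called 0, with 2 at an unadjusted p below 0.05, and DESeq2 called 2 higher, and their summed level was 4910 to 5711 CPM in Ctrl and 5743 to 5961 CPM in Sox2 cKO. Of 7 oligodendrocyte markers edgeR called 0, with 2 at an unadjusted p below 0.05, and DESeq2 called 3 lower. Defining markers of each of these cell types were detected, and no marker was at 0 in all 6 libraries.

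Across the 6 libraries, which include the difference between the groups, the members did not move as one. Pearson's r of log2 CPM over the 36 pairs of members was highest for Sparcl1 and Thbs2 (0.88), Sparcl1 and Gpc5 (0.85) and Thbs2 and Gpc5 (0.81), and lowest for Gpc4 and Gpc5 (-0.81) and Sparc and Thbs2 (-0.80). These values rest on 6 points that share libraries and scaling, and are given as a description. Among 10125 genes with a mean of at least 10 CPM, those most like Sparc were Serpinf1 (r = 0.998), which encodes a secreted serpin, and Kctd15 (r = 0.997). Those most like Sparcl1 were Vangl2 (r = 0.992), a planar cell polarity protein, and Kat2b (r = 0.986), a histone acetyltransferase. For Thbs2 they were Gprc5b (r = 0.998), an orphan receptor, and Faf2 (r = 0.998). For Gpc5 they were Maob (r = 0.995), the monoamine oxidase that is abundant in astrocytes, and Fdft1 (r = 0.978), squalene synthase. For Gpc4 they were Slc35d3 and Ankrd45, for Gpc6 Coro7 and Slc26a2, for Thbs1 Afap1l1 and Bmp7, for Chrdl1 Zfp605 and Pip4k2c, and for Thbs4 Rtkn and Acsl5, with r between 0.973 and 0.994.

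Among relatives of the 9 genes, 2 were lower and 1 higher of the 12 tested in a list of 13, with a median log2 fold change of -0.11 against 0.02 for all genes tested. The share called, 25%, was near the 24.6% over all genes. Fstl1, a secreted glycoprotein with a SPARC-like domain, had 144, 179 and 172 CPM in the Ctrl mice and 121, 118 and 132 CPM in the Sox2 cKO mice (log2 fold change -0.41, adjusted p = 0.0183, edgeR). Spock2, a testican of the same family at 1066 to 1634 CPM, had a log2 fold change of -0.36 (adjusted p = 0.0379, edgeR). Both were lower in every Sox2 cKO library. Chrd, which encodes chordin, the founding relative of Chrdl1, was higher at 0.64 (adjusted p = 0.0498, edgeR). With the length correction Fstl1 alone of these 3 was called. Thbs3 and Comp, the remaining thrombospondins, had values of 0.09 and -0.19 and were not called, and nor were Gpc1, Gpc2 and Gpc3. Chrdl2 did not pass the filter.

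Other secreted proteins with a role at synapses had 2 of 8 tested genes lower and 0 higher, or 25%, close to the 24.6% called over all genes, with a median of -0.20. Tgfb2, a transforming growth factor, had 13.2, 16.6 and 20.6 CPM in the Ctrl mice and 10.3, 10.9 and 10.7 CPM in the Sox2 cKO mice (log2 fold change -0.66, adjusted p = 0.0173, edgeR). Sema3a, a repulsive guidance cue, had a log2 fold change of -0.34 (adjusted p = 0.0422, edgeR). The groups did not overlap for either. Tgfb1, Tgfb3, Bdnf, Il33, Ndp and Ptx3 were not called, and Tnf did not pass the filter. Sema3a was not called with the length correction.

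Of 25 receptors and binding partners of the 9 proteins, 6 were lower and 0 higher, with a median of -0.17. The share called, 24%, was near the 24.6% over all genes, where 12.4% were lower. Cacna2d1, the thrombospondin receptor, had a log2 fold change of -0.15 and was not called. The largest change among those called was that of Lrp1, an endocytic receptor of thrombospondins, at 515, 808 and 751 CPM in the Ctrl mice and 391, 439 and 457 CPM in the Sox2 cKO mice (log2 fold change -0.69, adjusted p = 0.0150, edgeR). Bmpr2, a receptor of bone morphogenetic proteins, had -0.48 (adjusted p = 0.0285, edgeR), although the groups overlapped at 178 CPM. Gria1, the AMPA receptor subunit GluA1, had -0.42 (adjusted p = 0.0205, edgeR). Ptprf, a receptor tyrosine phosphatase, was also called lower. None of the 6 calls was made after the length correction. With each library corrected for its trend with length, 0 of the 25 were called lower and 1 was called higher, Gria2, which encodes GluA2, and the median was 0.02.

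Enzymes that build and trim heparan sulfate, the sugar chains that glypicans carry, were listed together with Notum and Adam9, which release glypicans and were not called. Genes of this list were lower in larger number. Of 18 genes, 7 were lower and 1 higher, with a median of -0.30. Xylt1, which starts the chains, had 12.3, 15.7 and 12.2 CPM in the Ctrl mice and 5.40, 10.6 and 5.82 CPM in the Sox2 cKO mice (log2 fold change -0.87, adjusted p = 0.0268, edgeR). Its relative Xylt2 had -0.45 (adjusted p = 0.0208, edgeR), and Ndst1, the main N-sulfating enzyme, had -0.72 (adjusted p = 0.0128, edgeR). Ext1, Extl3, Hs6st1 and Sulf2 were the other genes called lower. Glce, the epimerase, was higher at 0.32 (adjusted p = 0.0414, edgeR). None of the groups of the 4 genes given with values overlapped. With the length correction 6 were lower and 1 higher, where 13.1% of all genes tested were called. DESeq2 called 10 lower and 0 higher, where 28.1% of its genes were called. The share called by edgeR without the length correction, 44.4%, compares with 24.6% of all genes, and the list was chosen with earlier results of these data known. Over the 63 genes tested in these 4 lists, edgeR called 17 lower and 2 higher, where 12.4% of all genes were lower and 12.2% higher. This balance depended on the scaling. With library totals alone edgeR called 11 lower and 4 higher of the 63, where 7.51% of all genes were called lower and 17.2% higher. By limma on log2(FPKM + 1) it was 7 lower and 3 higher of 61, where 6.2% of all genes were lower and 18.1% higher, and in the heparan sulfate list it was 3 and 2 of 17. With the length correction 8 were lower and 2 higher, where 13.1% of all genes tested were called. edgeR called 0 without Ctrl library 4 and 0 without Sox2 cKO library 1, where it called 26 and 8 of all genes. In these fits 24 and 26 had an unadjusted p below 0.05, and DESeq2 called 11 and 12 lower. Without Ctrl library 6 edgeR called 4 lower and without Sox2 cKO library 3 it called 5 lower, where it called 1082 and 1359 of all genes. Without Ctrl library 2 it called 27 lower and 5 higher, where it called 6119 of all genes. In the heparan sulfate list alone edgeR called 0 and 1 lower without Ctrl library 4 or 6. It called 10 lower and 2 higher there without Ctrl library 2. Without Sox2 cKO library 1, 3 or 5 it called 0, 2 and 4 of that list lower, the last where it called 2665 of all genes.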

How the data were processed

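Poly(A) RNA of whole spinal cord was sequenced by the study in 6 libraries, with single-end reads from a directional kit. The labels give a minimum RNA integrity number of 6.8, and the study's methods give a higher minimum, so the sources differ on RNA quality. The authors aligned the reads to mm10 with STAR 2.5, counted them per gene with HTSeq 0.6.1 and deposited these counts without normalization; the annotation release and the strand setting are not given in the sources used here. The authors also deposited FPKM values, computed from the same counts, the gene length and the library total. The gene lengths implied by both tables were whole numbers within 0.01 bases for the 24442 genes with a count. The number of sample columns left unused was 0.

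The numbered columns were assigned to groups by the mouse numbers on a blot of the study, which is an assumption, and the study's listed group means were read to check it. Nothing in the labels says that a library is other than 1 mouse, and no pair of libraries was a copy. Gene names and positions came from GENCODE M21 (GRCm38, the build of mm10), which named 34490 of 35275 identifiers, and promoters from RefSeq. The marker Lhfpl3 had no row of that name.

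Tests on the counts used edgeR 4.0.16 in R 4.3.3 (filterByExpr, TMM, quasi-likelihood test without covariates, Benjamini-Hochberg adjustment at 0.05). CPM are counts scaled by the TMM library size. The biological coefficient of variation was 0.119. The SE and 95% interval of a fold change come from its test statistic, and the Poisson intervals cover counting error only. Alternatives were DESeq2 1.42.0, other scalings and filters (no filter, or at least 10 counts in every library), limma 3.58.1 on log2(FPKM + 1) and log2(FPKM + 0.1) for genes with a mean of at least 0.5 FPKM, a lowess correction for gene length (span 0.3), and leaving out each library. The fits were tested on simulated data with known changes. Where a trend of the fold change with gene length was simulated, most calls of the edgeR fit without the length correction were of unchanged genes, and few were with it. The slope of that trend was set by hand, and the slope in the deposited counts was not measured. These shares therefore do not carry over to the deposited counts. In the deposited counts the correction lowered the number of genes called from 3970 to 2109.

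The members, the gene lists and the tests were chosen with earlier results of these data known. Besides the 9 genes and Sox2, the text names up to 3 called genes in each direction with the largest fold changes of each list, and the 2 genes most like each member by Pearson's r of log2 CPM (prior count 2). Other names within a list serve to account for its members and were chosen after their values were seen. Values of 1 gene in the list of receptors and binding partners are not reported here.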

Additional observations from a re-analysis of the deposited data

How the results depend on the processing

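Alternatives comprised 9 that kept every library and 6 that left one out, with edgeR, and 6 more that left one out with DESeq2, added after the data had been seen. Thbs2, Sparcl1 and Gpc5 stayed lower and Sparc and Gpc4 higher in all of them. With DESeq2 and with the length correction 2 members were called lower, Thbs2 and Sparcl1, and 0 higher, Sparc having log2 fold changes of 0.60 and 0.50. Sparcl1 was also called with relative log expression size factors (-0.28, adjusted p = 0.0474, edgeR) and with at least 10 counts in every library (-0.26, adjusted p = 0.0492), which makes 2 called lower in each. Its value was -0.28 with DESeq2, -0.30 with the length correction and -0.17 with library totals and in both limma fits. Gpc6 turned to 0.0085 and 0.016 in the limma fits and 0.15 with the length correction, and Chrdl1 to 0.023 with upper quartile scaling, 0.075 with library totals, 0.034 and 0.077 with limma and 0.042 with the length correction. Library totals alone moved the median of all genes from 0.02 to 0.12, and limma on log2(FPKM + 0.1) to 0.11, so small shifts of a member are relative to that.

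Leaving out 1 library gave between 0 and 2 members called lower and between 0 and 1 called higher. The log2 fold change then ranged from 0.40 to 0.91 for Sparc, -0.33 to -0.23 for Sparcl1, -0.26 to 0.43 for Thbs1, -0.61 to -0.51 for Thbs2, -0.74 to 0.52 for Thbs4, 0.11 to 0.23 for Gpc4, -0.21 to -0.13 for Gpc5, -0.23 to 0.10 for Gpc6, -0.15 to 0.054 for Chrdl1 and -3.08 to -2.56 for Sox2, and the difference in log2 ratio of Sparc to Sparcl1 from 0.71 to 1.16. That difference was 0.94 from counts and from FPKM. With a library left out, DESeq2 called Sparc without Ctrl library 2 and without Ctrl library 6 (adjusted p = 0.0314), and Sparcl1 in all but the fits without Sox2 cKO library 1 (adjusted p = 0.0582) and without Sox2 cKO library 5 (adjusted p = 0.0546). Over all genes, edgeR called 8 when Sox2 cKO library 1 was left out and 6119 when Ctrl library 2 was, the extremes of its 6 fits, and DESeq2 called from 1974 to 5607. The causes were not tested. No paired analysis was possible because the columns carry no replicate numbers. Depth limits Thbs4, Chrdl1 and Gpc4, whose means were below 7 CPM, and for Thbs1 the Ctrl libraries spread widely, with a coefficient of variation of 48.1% where that of Gpc4 at a similar level was 7.02%.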
